A study of Homo sapiens with 10 samples.

Results

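The scramble control arrays of the series measured gene expression in HEK-293 cells that received a small interfering RNA (siRNA) with no intended target. They are 2 of the 10 arrays, chosen by their label alone, and all 18480 genes of the deposited tables were described on both. HEK-293 is a human line made by transforming cultured embryonic kidney cells with sheared adenovirus DNA. The cells received the scramble siRNA at 10 nM with the lipid reagent RNAiMax. The other 8 arrays, which serve here only for the spread between replicates, carry siRNA 1 or siRNA 2 to LINC00324 or to LOC400043, which are long noncoding RNAs (lncRNAs), also at 10 nM, with 2 arrays in each group. All cells were grown in low-glucose medium with serum and pyruvate, and all went through transfection, so no array shows untouched cells. The labels call the arrays of a group biological replicates without saying what separates them, and 2 arrays limit the precision of every level. Levels have no contrast within 1 condition, so they are given as descriptions with no test.

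A continuously growing line is expected to keep the transcripts that every dividing cell needs, such as those of ribosomes, energy metabolism and nucleotide synthesis, and to lack most transcripts of finished tissues. The tissue of origin of HEK-293 has been debated, because the line shares markers with kidney, adrenal and neural cells. Genes of the nephron, the adrenal gland, neurons, epithelia, mesenchyme and the early embryo therefore served as lists beside those of metabolism and signalling.

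Levels are log2 values from robust multi-array averaging (RMA), which subtracts background, forces the arrays onto a common distribution and gives each probe set 1 value. Where a pair of values is given without further words, it is scramble replicate 1 and then scramble replicate 2, in the deposited table of LINC00324. The brightness of a probe set depends on how well its probes bind as well as on the amount of RNA, so a level or rank is not an amount that can be set against that of another gene. Medians over all genes were 7.73 and 7.70, with a lowest value of 2.74 on each array and highest values of 13.79 and 13.82. The background was read from 429 probe sets of 370 olfactory receptor genes and 59 keratin-associated protein genes, families used by the nose and the hair follicle. Their 95th percentile, 7.16 and 7.07, was the background limit. A gene was called near background at or under it on both arrays, and above background over it on both. Bright genes were in the top 10% of the table on both arrays, over 10.45 and 10.48.

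By these limits 1774 genes (9.6%) were bright, 10587 (57.3%) lay above background with the bright ones included, and 7394 (40%) lay near background. The other 499 genes (2.7%) passed the limit on 1 array only. Close to the background limit 882 genes lay within 0.5 over it and 956 within 0.5 under it. The limit is not sharp, because the median level was 4.84 for olfactory receptor genes and 6.62 for keratin-associated genes. For that reason a strict limit, the 99th percentile of the same probe sets at 8.84 and 8.52, and a low one, the 95th percentile of the olfactory receptors alone at 6.42 and 6.25, are used beside it. The strict limit was passed on both arrays by 6008 genes (32.5%), and 5208 genes (28.2%) lay at or under the low one.

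**Figure D1:**
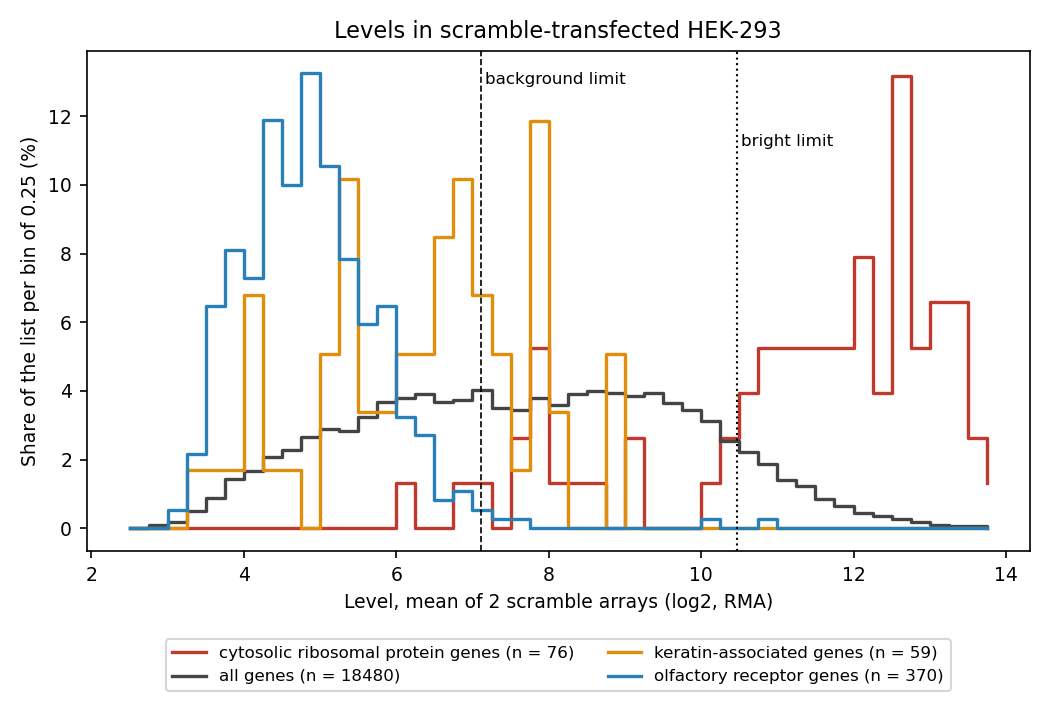
Levels of 4 sets of genes, as the share of each set per bin of 0.25 (y axis, %) against the mean level of the 2 scramble arrays (x axis, log2, RMA). The dashed line is the background limit and the dotted line the bright limit, each as the mean over both arrays. Olfactory receptor genes, with a median of 4.84, form the dim end, keratin-associated genes reach further up with a median of 6.62, and cytosolic ribosomal protein genes, with a median of 11.84, form the bright end.

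The brightest probe sets were those of ribosomal proteins, mitochondrial messengers, structural RNAs and a few housekeeping proteins. The 20 brightest lay between 13.42 and 13.78 in the mean of both arrays, and their values differed between the arrays by at most 0.111. Of these 20, 6 belonged to cytosolic ribosomal protein genes, 3 to genes of the mitochondrial genome, and 3 to genes that do not code for protein. RPS28, a protein of the small ribosomal subunit, ranked first at 13.79 and 13.78. The linker histone gene H1-4 had 13.77 and 13.76. The mitochondrial gene COX2, which encodes a subunit of cytochrome c oxidase, had 13.71 and 13.82. CYTB, the mitochondrial cytochrome b of respiratory complex III, had 13.72 and 13.78, and COX1 had 13.63 and 13.74.

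RN7SK, the small nuclear RNA that holds back the elongation factor P-TEFb, had 13.70 and 13.71. The ribosomal scaffold RACK1 had 13.67 and 13.72, and the chaperone HSPA8 had 13.62 and 13.69. DAD1, a subunit of the oligosaccharyltransferase, had 13.49 and 13.53. The tubulin gene TUBB had 13.46 and 13.45, and the cytoplasmic actin gene ACTG1 13.40 and 13.44. Others among the 20 were RPL13AP5, RPL18, RPL8, RNA18SN5, GAPDH, RPS13, RPS3 and RPS2.

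Several of these bright probe sets lie on another chromosome than the gene whose name they carry. Of 18093 probe sets that could be compared with RefSeq, 107 (0.591%) did so, and 47 of these were bright, against 9.6% of all genes. The probe set named RPS28 lies on chromosome 17 in the table, from 18476035 to 18476415, while RefSeq places the gene on chromosome 19. RPS2, RPL5 and RPLP0 are further examples, and 18 of the 107 carry names of cytosolic ribosomal proteins. Such probe sets may read processed copies of a gene as well as the gene itself, which was not tested, and their levels are uncertain as levels of the named gene. The build of the coordinates in the tables is not given in the sources used here.

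As a whole, 57 of 76 cytosolic ribosomal protein genes (75%) were bright and 73 lay above background, with a list median of 11.84 against 7.72 for all genes. RPL18 had 13.69 and 13.70, and RPL8 13.61 and 13.59. The dimmest member was RPL4, at 6.16 and 6.17. RPL34 had a low level on 1 probe set and was bright on another, as given below. Whether the value of RPL4 is that of its probe set was not tested. Of 30 measured translation factors 21 (70%) were bright, led by EIF1, which helps select the start codon, at 13.04 and 13.02. EEF2, the elongation factor that moves the ribosome along, had 13.01 and 13.03. EEF1A1, which brings aminoacyl-tRNA to the ribosome and is known as one of the most abundant transcripts of human cells, had only 8.39 and 8.54 on a probe set of 10 probes. EIF4E, the cap-binding protein, was the dimmest factor at 6.22 and 6.07.

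Markers known for HEK-293 were mostly, but not all, above background. VIM, the intermediate filament vimentin, was bright at 11.38 and 11.48, as were CDH2, the N-cadherin, at 10.99 and 11.05, and INA, the neurofilament protein alpha-internexin, at 11.01 and 11. NEFM, the medium neurofilament protein, had 10.28 and 10.31, and LIN28B, which blocks the maturation of let-7 microRNAs, 9.38 and 9.48. The simple-epithelium keratins KRT18 and KRT8 had 9.41 and 9.24, and 7.46 and 7.54. The KRT18 probe set has 4 probes and lies on chromosome 9, while RefSeq places the gene on chromosome 12, so its level is uncertain as that of KRT18. NEFH, the heavy neurofilament protein, lay near background at 5.82 and 5.91. PAX2, a regulator of the kidney lineage, also lay near background at 6.70 and 6.73, and its relative PAX8 passed the limit on replicate 1 only, at 7.24 and 6.95. NEFL was not analysed here.

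Of the markers that HEK-293 should lack, CDH1 alone passed the limit. AQP1, a water channel of the proximal tubule, had 6.03 and 5.75, and UMOD, the uromodulin of the thick ascending limb, had 5.98 and 6.06. PTPRC, the leukocyte antigen CD45, had 3.90 and 3.80, PECAM1 of the endothelium 4.99 and 4.75, and albumin (ALB) 4.60 and 4.51. All of these were classed as near background, and PTPRC, PECAM1 and ALB lay far under the limit. CDH1, the E-cadherin, lay just over the limit at 7.20 and 7.27, and in the LOC400043 table, where the values were 7.01 and 7.07, it passed the limit of that table on 1 array.

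Over all 23 lineage lists, 460 different genes were measured. Of these 13 (2.83%) were bright, against 9.6% of all genes. Above background lay 156 (33.9%), against 57.3% of all genes, and near background lay 289 (62.8%), against 40%. The 13 bright genes were SNAI2, HOXB9, HOXD10, IGF2BP1, VIM, UCHL1, MYC, CDH2, INA, GPC3, TFAP2A, TJP1 and HOXD13.

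The nephron tubule list holds transporters, channels and carriers of the mature kidney. Of its 28 measured genes 4 (14.3%) lay above background, against 57.3% of all genes. None was bright, and none passed the strict limit. LRP2, the endocytic receptor megalin of the proximal tubule, had 8.41 and 8.44. AQP3 had 7.36 and 7.29, MIOX 7.42 and 7.15, and ATP6V1B1 7.20 and 7.24, all less than 0.5 over the limit. The dimmest was KCNJ1, the potassium channel ROMK, at 4.34 and 4.12. CUBN, the partner receptor of megalin, had 5.80 and 5.53, and SLC12A1, the target of loop diuretics, had 4.37 and 4.49. In the podocyte list 6 of 12 (50%) lay above background, against 57.3% of all genes. Of its members 2 (16.7%) passed the strict limit, against 32.5% of all genes. CD2AP, an adaptor of the slit diaphragm, had 10.11 and 10.28, and PODXL, the sialomucin podocalyxin, had 9.66 and 9.64. KIRREL1 had 8.57 and 8.59. NPHS1, which encodes nephrin of the slit diaphragm, lay near background at 6.27 and 6.14.

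Among transcription factors of the developing kidney 14 of 26 (53.8%) lay above background, near the 57.3% of all genes. None was bright, and 6 (23.1%) passed the strict limit, against 32.5% of all genes. EYA1, a transcriptional coactivator, had 10.35 and 10.47. SIX2, the factor of nephron progenitors, had 9.97 and 9.77. HOXD11 had 9.83 and 9.87. SALL1 had 9.15 and 9.17, and FOXD1, a factor of the renal stroma, had 8.73 and 8.56. WT1, which acts in nephron progenitors and podocytes, had 8.04 and 7.89, between the background and the strict limit. OSR1 and TCF21 lay near background.

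Of the adrenal list 2 of 13 (15.4%) lay above background, against 57.3% of all genes. Both serve electron transfer in all mitochondria rather than in steroid cells alone. These were ferredoxin, FDX1, at 8.60 and 8.55, and its reductase FDXR at 8.58 and 8.53. The steroid enzymes CYP11A1, at 5.33 and 5.06, and CYP17A1, at 5.18 and 5.06, lay near background, as did the steroidogenic factor NR5A1 at 6.10 and 5.79. HSD3B2 was the dimmest at 4.68 and 4.50. In the list of chromaffin cells and neural crest 5 of 21 (23.8%) lay above background, also under the share of all genes. TFAP2A, a factor of the neural crest and the epidermis, was bright at 10.75 and 10.79. GATA2 followed with 8.40 and 8.43, FOXD3 with 7.87 and 7.74 and ISL1 with 7.73 and 7.86. The genes of the catecholamine pathway, TH, DDC, DBH and PNMT, all lay near background, with TH at 7.07 and 6.46. The dimmest was the granin gene SCG2 at 4.67 and 4.56.

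Neuronal genes were split, with 12 of 28 (42.9%) above background, 15 near it and 1, SYN1, above it on 1 array. These shares were under those of all genes, of which 57.3% lay above background. The strict limit was passed by 4 neuronal genes (14.3%), against 32.5% of all genes. UCHL1, a ubiquitin hydrolase abundant in neurons, was bright at 11.29 and 11.24, and INA and NEFM had the values above. NRXN3, a presynaptic adhesion protein, had 9.46 and 9.43. MAP2, at 4.98 and 4.77, DCX, at 5.02 and 4.87, and STMN2, at 5.86 and 5.61, lay near background although they are widely used to mark neurons. ELAVL4 was the dimmest at 3.98 and 3.87. Of 16 glial genes 6 (37.5%) lay above background, the bright VIM among them. PMP22, a myelin protein that many other cells make, had 10.46 and 10.33, the glutamate transporter SLC1A3 had 9.44 and 9.49, and SOX9 had 8.48 and 8.44. GFAP, at 6.73 and 6.39, and S100B, the dimmest at 4.64 and 4.54, lay near background.

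Both epithelial and mesenchymal lists had members above background, at shares under those of all genes, which were 57.3% above background and 32.5% over the strict limit. In the epithelial list 13 of 29 (44.8%) lay above background and 5 (17.2%) passed the strict limit. TJP1, the tight-junction scaffold, was bright at 10.57 and 10.65, and the desmosome genes DSP, at 10.25 and 10.28, and PKP2, at 9.71 and 9.68, passed the strict limit. EPCAM had 5.26 and 5.53 on a probe set of 4 probes that lies on another chromosome than the gene, the splicing regulator ESRP1 5.22 and 4.73, and KRT20 was the dimmest at 4.95 and 4.99. ESRP2, the close relative of ESRP1, had 8.49 and 8.45. In the mesenchymal list 13 of 26 (50%) lay above background and 7 (26.9%) passed the strict limit. SNAI2, the repressor of E-cadherin also called Slug, was bright at 11.79 and 11.91, while SNAI1 lay near background at 6.18 and 6.22. FN1, the fibronectin gene, had 9.59 and 9.62, and ZEB1 8.99 and 8.96. Collagens of the fibroblast matrix were dim, with COL1A2 at 6.75 and 6.47, and POSTN was the dimmest at 3.57 and 3.68.

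Of 15 pluripotency genes 6 (40%) lay above background, against 57.3% of all genes. MYC was bright at 11.14 and 11.12, and LIN28B, DNMT3B at 8.69 and 8.57 and SOX2 at 8.23 and 8.30 followed. PRDM14, DPPA4, ZFP42 and L1TD1 lay near background, and DPPA2 was the dimmest at 3.55 and 3.47. The oncofetal list, genes of the embryo that return in tumours, had 10 of 13 (76.9%) above background, against 57.3% of all genes. The strict limit was passed by 7 (53.8%), against 32.5% of all genes. The list median was 9.19 against 7.72 for all genes. IGF2BP1, an RNA-binding protein that steadies MYC messenger RNA, was bright at 11.63 on both arrays. GPC3, the heparan sulphate proteoglycan glypican 3, was bright at 10.82 and 10.89. IGF2BP3 had 9.83 and 9.91 and IGF2BP2 9.67 and 9.61. AFP, the alpha-fetoprotein of fetal liver, was the dimmest at 4.25 and 4.21, and LIN28A lay near background at 5.88 and 5.40 where LIN28B did not.

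Imprinted genes lay above background in 5 of 16 cases (31.25%), against 57.3% of all genes. GNAS had 10.39 and 10.37, GRB10 9.26 and 9.24, SGCE 8.72 and 8.73 and CDKN1C 8.58 and 8.25. SNRPN was the dimmest at 3.27 and 2.98. Of 18 cancer-testis genes, which the germ line normally keeps to itself, 3 (16.7%) lay above background, also under the share of all genes. None of them passed the strict limit. TEX15 had 8.77 and 8.75, PRAME 8.12 and 8.17 and CTAG2 8.13 and 7.73. All measured MAGE and PAGE genes lay near background, and SYCP1 was the dimmest member at 3.49 and 3.50.

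HOX genes, which set position along the body axis, had the highest share above background of the 23 lineage lists. Above background lay 32 of 35 (91.4%), against 57.3% of all genes, and 18 (51.4%) passed the strict limit, against 32.5%. HOXB9 was bright at 11.81 and 11.74, HOXD10 at 11.73 and 11.67, and HOXD13 at 10.62 and 10.59. HOXA6 had 10.41 and 10.37. By cluster, 10 of 10 HOXA genes, 9 of 10 HOXB genes, 6 of 7 HOXC genes and 7 of 8 HOXD genes lay above background, and the cluster medians were 9.31, 8.84, 8.13 and 8.43 in that order. The 3 genes near background were HOXB1 at 6.47 and 6.22, HOXC12 at 6.16 and 6.01, and HOXD12 at 5.01 and 4.68, which lies in its cluster next to the bright HOXD13. Regulators of the germ layers were above background in 11 of 18 cases (61.1%), near the 57.3% of all genes, and over the strict limit in 2 (11.1%), against 32.5%. These were GATA6 at 10.04 and 9.97 and NKX2-5, a factor of the early heart, at 9.91 and 9.66. PAX6 followed with 8.59 and 8.63 and GATA4 with 8.46 and 8.23, and TBXT, the brachyury factor of the primitive streak, was the dimmest at 5.97 and 6.0.

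Finished cell types outside these lineages were near background for the most part. Each of their lists had a smaller share above background than the 57.3% of all genes. Of 28 hepatocyte genes 1 lay above background, CPS1 at 8.94 and 9.04, the enzyme that opens the urea cycle, and F9 was the dimmest at 3.52 and 3.51. Above background were 2 of 24 leukocyte genes, CD68 at 7.87 and 7.82 and ELANE at 7.75 and 7.47. Endothelial genes passed in 2 of 16 cases, SOX18 at 8.35 and 8.03 and CLDN5 at 7.49 and 7.09, the last on 1 array only in the LOC400043 table. Erythroid genes passed in 2 of 15 cases, of which TFRC, the transferrin receptor that all dividing cells use, had 10.37 and 10.56 and KLF1 had 7.64 and 7.40. The haemoglobin gene HBB had 5.24 and 5.36. Muscle genes passed in 5 of 26 cases, led by NKX2-5 and by ACTA1 at 8.08 and 7.81. The count of passing genes differed by more than 1.5 times when replicate 2 was left out, to 8 muscle, 4 endothelial, 4 leukocyte and 2 hepatocyte genes.

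The adipocyte list passed in 4 of 14 cases, led by the lipase gene PNPLA2 at 9.81 and 9.61 and by PPARG at 9.18 and 9.21. Lung, gut and pancreas genes passed in 3 of 22 cases, CDX2 at 8.92 and 8.71, FOXA1 at 8.45 and 8.46 and PTF1A at 7.25 and 7.19, the last on 1 array only in the LOC400043 table. Genes of melanocytes and the retina passed in 4 of 17 cases, led by PAX6 and by MITF at 8.05 and 7.97, while the pigment enzyme gene TYR had 4.50 and 4.34. FABP2 of the gut was the dimmest of the lung, gut and pancreas list at 3.76 and 4.10.

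**Figure D2:**
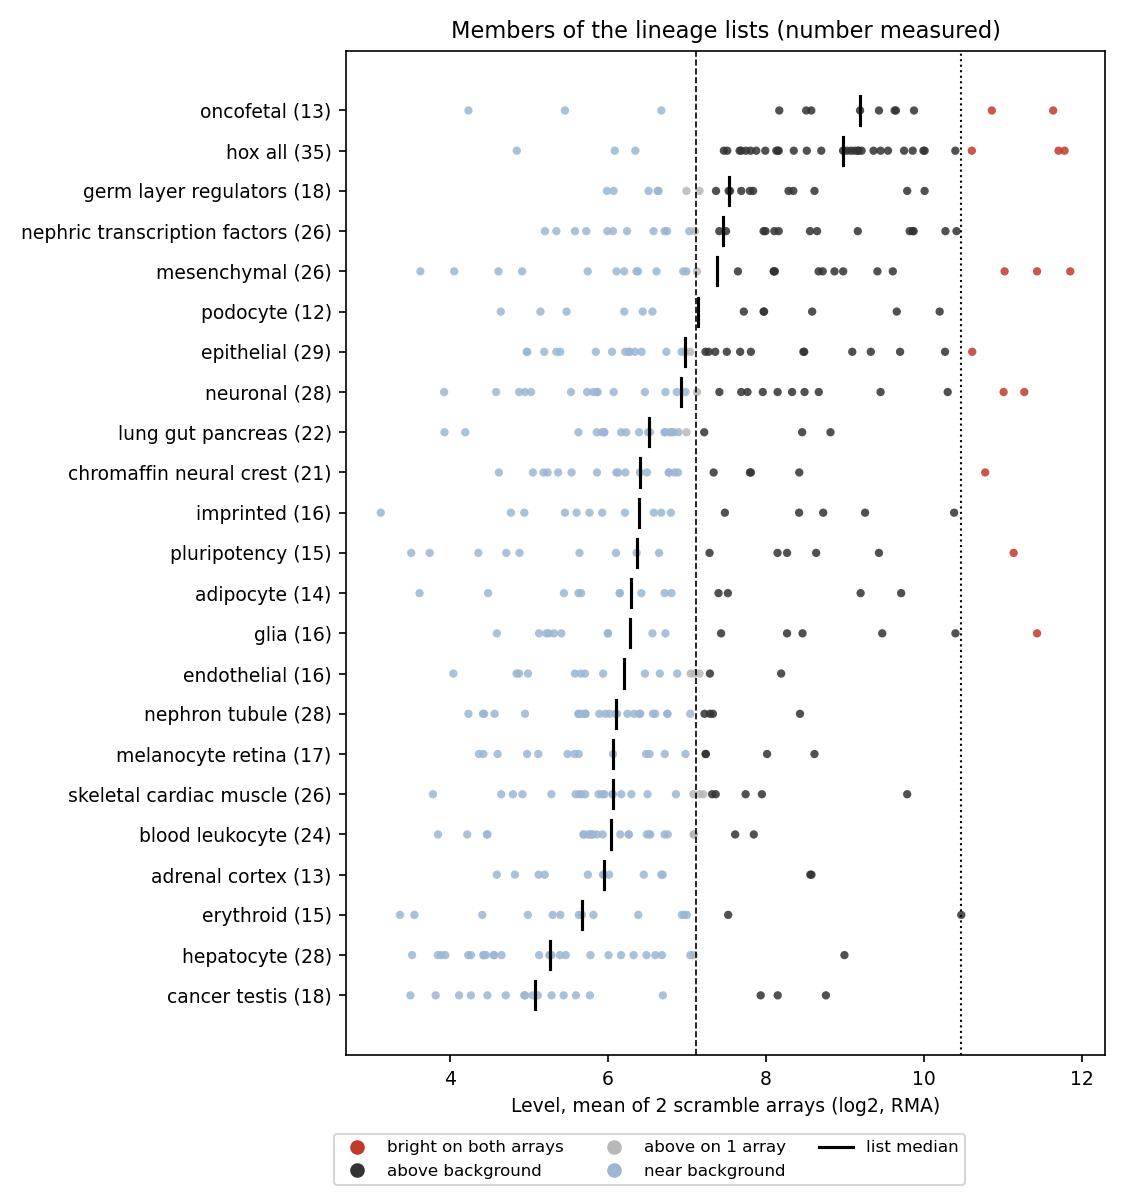
Mean level of the 2 scramble arrays (x axis, log2, RMA) for each measured member of the 23 lineage lists, sorted by list median, with the number measured in brackets. The dashed line is the background limit and the dotted line the bright limit, as means over both arrays. The oncofetal list, with a median of 9.19, and the HOX list, with 8.97, sit to the right of the rest, and the hepatocyte list, with 5.26, and the cancer-testis list, with 5.08, to the left.

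Adenovirus proteins act on the retinoblastoma protein family in HEK-293, so the genes that control entry into the cell cycle are of interest in this line. The list used here covers the p53 and retinoblastoma circuit and also holds genes of cell death, BAX and MCL1 among its bright members. Of its 28 measured genes 27 (96.4%) lay above background, against 57.3% of all genes. The strict limit was passed by 21 (75%), against 32.5% of all genes, and 8 (28.6%) were bright, against 9.6%. The list median was 9.55 against 7.72 for all genes. RB1, the retinoblastoma gene, was bright at 10.83 and 10.94, and the ubiquitin ligase gene MDM2 at 11.14 and 11.26. CDK4 had 12.04 and 11.99. CDKN2A, which encodes inhibitors of CDK4 and of MDM2, had 11.09 on both arrays. CDKN1A, an inhibitor of cyclin-dependent kinases, had 9.15 and 9.08. CCND1, the cyclin partner of CDK4, stood close to the limit at 7.68 and 7.26, whereas CCND2 had 10.07 and 10.12 and CCND3 9.95 and 9.83. TP63 lay near background at 5.13 and 4.97.

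Among genes of Wnt, Notch and Hedgehog signalling 20 of 26 (76.9%) lay above background, against 57.3% of all genes. The strict limit was passed by 10 (38.5%), near the 32.5% of all genes, and 2 (7.69%) were bright, against 9.6%. The Wnt effector CTNNB1 was bright at 12.72 and 12.77, and its partner LEF1 had 10.18 and 10.22. HEY1, a target of Notch, was bright at 11.61 and 11.64, and the receptor NOTCH2 had 10.10 and 10.09. In the Hedgehog pathway the receptor PTCH1 had 9.37 and 9.40, the transducer SMO 9.08 and 9.07 and the factor GLI3 9.39 and 9.53, while GLI1 was the dimmest of the list at 6.49 and 6.07.

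Metabolic genes were bright in a larger share than all genes. Of 290 different metabolic genes 105 (36.2%) were bright, against 9.6% of all genes, and 52 (17.9%) lay near background, against 40%. Glycolysis, which splits glucose into pyruvate and lactate, had 8 bright genes among 18. GAPDH had 13.54 and 13.47, LDHB 13.30 and 13.37, ENO1 13.28 on both arrays, and LDHA 13.03 and 13.11. SLC2A1, the glucose transporter GLUT1, lay at the bright limit with 10.46 and 10.47, under it on replicate 2, and was bright in the LOC400043 table. HK2 had 9.56 and 9.73 and HK1 8.46 and 8.48. The lactate transporter SLC16A1 was bright at 10.90 and 10.92. SLC2A3 was the dimmest of the list at 7.07 and 7.04, near background here and above it in the LOC400043 table.

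Of 3 germ-line isoforms of glycolytic enzymes, PGK2 and GAPDHS lay near background and LDHC, the lactate dehydrogenase of sperm, passed the limit on replicate 2 only, at 6.89 and 7.18. PGK1, phosphoglycerate kinase, had 12.15 and 12.18, and PGK2, its counterpart made in sperm cells, had 4.85 and 4.72. GAPDHS, the sperm counterpart of GAPDH, had 5.88 and 5.85. The promoters of these 2 pairs are printed because the members of each pair carry out the same reaction and fell in different classes. They run from 250 bases before to 50 bases after the RefSeq start on GRCh38.p14, 5′ to 3′ on the gene's strand, with CpG dinucleotides in capitals.
GAPDH, chr12:6535014-6535313, plus strand: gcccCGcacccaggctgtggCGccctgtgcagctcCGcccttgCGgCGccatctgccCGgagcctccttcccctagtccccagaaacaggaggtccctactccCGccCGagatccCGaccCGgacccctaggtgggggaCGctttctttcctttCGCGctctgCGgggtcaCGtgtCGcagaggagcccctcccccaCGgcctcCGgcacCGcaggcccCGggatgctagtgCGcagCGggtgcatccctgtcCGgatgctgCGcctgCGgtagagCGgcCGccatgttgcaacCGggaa
GAPDHS, chr19:35533206-35533505, plus strand: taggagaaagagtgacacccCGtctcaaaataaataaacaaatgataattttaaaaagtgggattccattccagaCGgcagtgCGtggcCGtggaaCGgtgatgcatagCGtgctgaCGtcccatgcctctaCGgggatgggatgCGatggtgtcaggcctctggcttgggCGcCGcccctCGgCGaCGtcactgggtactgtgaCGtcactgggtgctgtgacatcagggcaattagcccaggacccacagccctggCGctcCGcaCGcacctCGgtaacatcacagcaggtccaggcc
PGK1, chrX:78103998-78104297, plus strand: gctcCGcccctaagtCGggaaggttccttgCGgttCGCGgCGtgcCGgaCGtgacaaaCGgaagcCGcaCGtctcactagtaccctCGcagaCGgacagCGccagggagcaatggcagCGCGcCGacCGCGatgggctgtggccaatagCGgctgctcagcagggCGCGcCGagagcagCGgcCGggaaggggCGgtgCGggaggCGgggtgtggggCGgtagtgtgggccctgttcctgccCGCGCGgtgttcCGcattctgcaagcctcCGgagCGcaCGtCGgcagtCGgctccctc
PGK2, chr6:49787236-49787535, minus strand: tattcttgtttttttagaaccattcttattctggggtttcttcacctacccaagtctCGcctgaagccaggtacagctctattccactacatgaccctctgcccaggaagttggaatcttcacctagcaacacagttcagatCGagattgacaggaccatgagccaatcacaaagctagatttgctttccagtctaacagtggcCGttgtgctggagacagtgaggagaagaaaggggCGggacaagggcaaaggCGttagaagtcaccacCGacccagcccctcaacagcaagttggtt

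The promoter of PGK1 held 38 CpG in 300 bases, and that of PGK2 held 6. The GAPDH promoter held 28 and that of GAPDHS 19, so a CpG-rich promoter also stood before a gene near background. Base composition followed the same order, with 70.7% G and C for PGK1 and for GAPDH, 57.3% for GAPDHS and 49.0% for PGK2. The GC box GGGCGG, read on both strands, was found in all of them. GAPDHS alone held the cyclic AMP response element TGACGTCA.

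All 22 measured genes around the tricarboxylic acid cycle lay above background, 20 passed the strict limit and 9 were bright. MDH2, the mitochondrial malate dehydrogenase, had 12.76 and 12.74, IDH3G 12.28 and 12.22, and CS, the citrate synthase, 12.23 and 12.18. SDHB had 11.83 and 11.91, and the pyruvate carboxylase gene PC was the dimmest at 8.36 and 8.12. The nuclear list for oxidative phosphorylation, chosen by symbol, held 77 probe sets, among them a divergent transcript (NDUFV1-DT) and a pseudogene (UQCRBP1), and 36 (46.8%) were bright. ATP5MC1, the c subunit of ATP synthase, had 13.24 and 13.25, ATP5F1B 13.02 and 13.08, UQCRC2 12.26 and 12.34 and ATP5F1C 12.27 and 12.32. Isoforms known from muscle, testis or lung were near background or close to it, with COX7A1 at 5.90 and 5.75, COX8C at 5.68 and 5.07, COX4I2 at 6.68 and 6.20, COX6B2 at 5.28 and 5.02 and COX7B2 at 4.09 and 4.12. COX6A2 lay just above the limit at 7.53 and 7.33.

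Pathways that feed growth were bright in large part. In the serine and one-carbon list 10 of 20 genes were bright, with MAT2A, which makes S-adenosylmethionine, at 12.49 and 12.51, MTHFD2 at 11.58 and 11.68 and PHGDH at 11.41 and 11.37. The probe set of MTHFD2 lies on another chromosome than that gene. MAT1A, the liver counterpart of MAT2A, was the dimmest at 5.82 and 5.77. All 19 measured genes of nucleotide synthesis lay above background and 11 were bright. GMPS had 11.69 and 11.74, IMPDH2 11.68 and 11.67, ATIC 11.58 and 11.61 and PAICS 11.47 and 11.57. RRM2, a subunit of ribonucleotide reductase, was the dimmest at 7.74 and 7.65 on the probe set with the most probes, which the table names C2orf48. The probe set that the table itself names RRM2 was bright at 10.60 and 10.74, so the level of RRM2 is uncertain.

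Amino acid genes were bright in 10 of 19 cases. GOT2 had 12.44 and 12.42, ODC1, which opens polyamine synthesis, 12.06 and 12.12, SLC38A2 11.92 and 11.99 and GLUL 11.85 and 12.01, the last on a probe set of another chromosome. PRODH, which breaks down proline, was the dimmest at 6.61 and 6.20. All 21 measured sterol genes lay above background and 9 were bright. FDFT1, the squalene synthase gene, had 11.91 on both arrays, SQLE 11.10 and 11.18 and SC5D 10.86 and 11.20. PMVK was the dimmest at 7.71 and 7.67. In fatty acid synthesis 15 of 16 lay above background, led by ELOVL5 at 12.15 and 12.18, ACLY at 11.75 and 11.76, FADS1 at 10.85 and 10.94 and ELOVL1 at 10.68 and 10.76. SCD, the main stearoyl-CoA desaturase, was the exception at 6.25 and 6.17 on a probe set that the LOC400043 table does not hold. In that table another probe set of SCD was bright, at 11.68 and 11.74 on the same arrays, and all 16 genes of the list lay above background, so the low value is that of the probe set. SCD5 had 7.95 and 7.94.

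The pentose phosphate list had 3 bright genes among 8, PGD at 12.25 and 12.28, TKT at 11.18 and 11.12 and TALDO1 at 10.89 and 10.87, with TKTL1 near background at 5.96 and 5.80. In fatty acid oxidation and ketone metabolism 14 of 19 lay above background. HADHA had 11.43 and 11.44, ACADM 11.18 and 11.22, ECHS1 10.53 on both arrays and HADHB 10.37 and 10.47. ACAA1 was the dimmest at 5.19 and 5.09, on a probe set of 4 probes, so its level is uncertain.

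Metabolic lists that hold functions of liver and kidney had lower shares above background than the lists before them. In gluconeogenesis and glycogen metabolism 8 of 14 (57.1%) lay above background, about the 57.3% of all genes, and 2 (14.3%) were bright, against 9.6%. PYGL, the liver-type glycogen phosphorylase, was bright at 11.38 and 11.40, and the general glucose-6-phosphatase gene G6PC3 at 10.92 and 10.85. GYS1, the glycogen synthase of muscle and most tissues, had 9.71 and 9.78. The liver and kidney enzymes PCK1, FBP1 and G6PC1 lay near background, with G6PC1 the dimmest at 4.10 and 3.87. Urea cycle and aromatic amino acid genes were above background in 6 of 14 cases (42.9%), with FAH at 9.79 and 9.84, ASS1 at 9.78 and 9.68, CPS1 as above and GSTZ1 at 7.87 and 7.94, and with IDO1 the dimmest at 4.02 and 3.97. OTC, between CPS1 and ASS1 in the cycle, had 3.91 and 4.14.

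Detoxification genes passed the limit in 6 of 21 cases (28.6%), against 57.3% of all genes. GSTP1, a glutathione transferase, was bright at 12.42 and 12.33, the efflux pump ABCC1 had 9.75 and 9.71, and ABCB1 7.43 and 7.57. CYP2D6 stood at 7.66 and 7.21, and CYP3A4, the main drug-oxidizing enzyme of the liver, was the dimmest at 3.93 and 3.76. In the creatine list CKB, the brain-type creatine kinase, was bright at 12.58 and 12.52. SLC6A8 had 9.88 and 9.69, GAMT 9.75 and 9.54, and GATM, the first enzyme of creatine synthesis, was the dimmest at 5.38 and 5.14.

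In many isoform families some members lay above background and others near it, while in others, such as the tubulins and IGF2BP genes shown, none lay near it. Among aldolases ALDOA had 10.03 and 9.95 and ALDOC 8.17 and 8.22. Among creatine kinases CKB stood against CKM at 5.97 and 5.79 and CKMT2 at 6.29 and 6.28. Among adenine nucleotide translocases SLC25A5 had 12.88 on both arrays and SLC25A4 9.67 and 9.66, while SLC25A31, made in germ cells, had 4.86 and 4.83. PDHA1 had 10.58 and 10.63 and its testis counterpart PDHA2 6.22 and 6.06. The cytoplasmic actins ACTG1 and ACTB were bright, with ACTB at 12.95 and 12.94, and the cardiac actin ACTC1 had 5.95 and 5.96. Among phosphofructokinases no member lay near background, with PFKM at 9.62 and 9.63, PFKL at 9.23 and 9.15 and PFKP at 9.17 and 9.14.

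**Figure D3:**
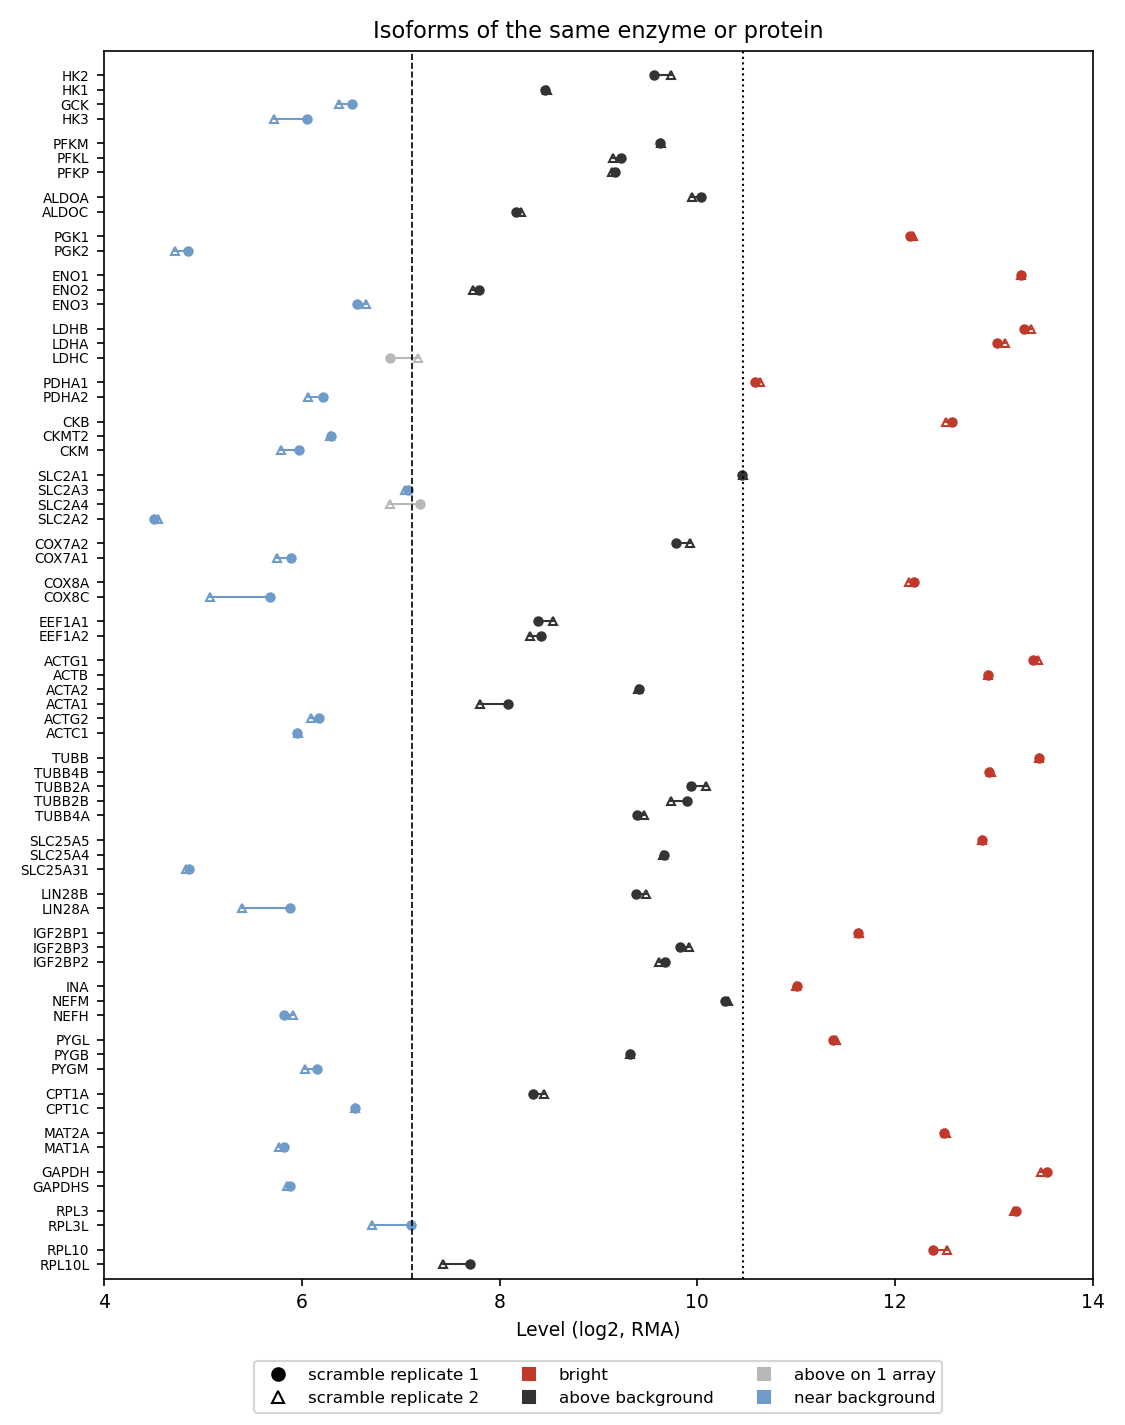
Level (x axis, log2, RMA) of each isoform on scramble replicate 1 (filled circle) and scramble replicate 2 (open triangle), grouped by protein. The dashed line is the background limit and the dotted line the bright limit, as means over both arrays. Each isoform is read by its own probe set, so only its class and the gap between its circle and triangle can be read, as for PGK1, bright at 12.15 and 12.18, and PGK2, near background at 4.85 and 4.72.

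No member of the signalling lists was bright. Of 156 different genes 70 (44.9%) lay above background, against 57.3% of all genes. HEK-293 is widely used to express cloned receptors. Of its own G protein-coupled receptors 14 of 36 measured (38.9%) lay above background, under the share of all genes. The strict limit was passed by 3 (8.33%), against 32.5% of all genes. These 3 were the adenosine receptor ADORA2B at 9.64 and 9.46, the R-spondin receptor LGR4 at 9.35 and 9.33, and the thrombin receptor F2R at 8.85 and 8.86. F2RL1 had 8.64 and 8.66. The muscarinic receptor CHRM3 had 4.44 and 4.41, and the serotonin receptor HTR2A was the dimmest at 4.47 and 4.11.

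Growth factor receptors were above background in 16 of 26 cases (61.5%), near the 57.3% of all genes. IGF2R had 10.14 and 10.18, MET, the receptor of hepatocyte growth factor, 9.56 and 9.57, ROR1 9.29 and 9.18 and EPHB4 9.12 and 9.11. IGF1R had 7.61 and 7.76, and on another probe set, in the LOC400043 table, 10.17 and 10.19, above background in both. EGFR had 7.92 and 8.12, between the background and the strict limit, and KDR was the dimmest at 5.02 and 4.95. Of 30 nuclear receptors 19 (63.3%) lay above background, also near that share, led by NR2F2 at 10.14 and 10.11, NR2F1 at 10.12 and 9.86, NR2F6 at 9.79 and 9.61 and NR6A1 at 9.62 and 9.63. The oestrogen receptor gene ESR1 lay near background at 5.77 and 5.61. The bile acid receptor NR1H4 was the dimmest at 4.49 and 4.19.

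Sensors of innate immunity and their adaptors were mostly near background, with 5 of 27 (18.5%) above it, against 57.3% of all genes. The list holds sensors of foreign nucleic acid and other members such as TLR4, CD14 and LY96. The kinase EIF2AK2, which double-stranded RNA activates, had 9.86 and 10.08. The adaptor MAVS had 8.97 and 8.92, the factor IRF3 8.82 and 8.79 and the adaptor MYD88 8.0 and 7.95. The DNA sensor CGAS had 4.03 and 4.56 and its adaptor STING1 6.85 and 6.83. RIGI, a sensor of RNA ends, passed the limit on replicate 2 only, at 6.71 and 7.19. All 9 measured Toll-like receptors lay near background, TLR3 among them at 5.81 and 5.80, and LY96 was the dimmest of the list at 3.83 and 3.73. Because all cells of the series were transfected with siRNA, levels without transfection were not analysed here. Ion channels passed in 16 of 37 cases (43.2%), against 57.3% of all genes. They were led by ANO6 at 9.95 and 10.11, TRPC1 at 9.64 and 9.76, TRPM7 at 9.49 and 9.71 and CLCN3 at 9.44 and 9.60. LRRC8A, the core of the volume-regulated anion channel, had 9.42 and 9.30, and the sodium channel gene SCN1A was the dimmest at 4.23 and 3.90.

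Noncoding genes differed by class. Protein-coding genes had a median level of 7.91, with 10.3% bright and 37.3% near background, over 16845 genes. Among 398 lncRNA genes the median was 6.04, 1 gene was bright (SNHG12 at 11.07 and 11.08, a host of small nucleolar RNAs) and 75.6% lay near background. Small nucleolar RNAs had a median of 7.30 over 173 and 17 bright. SNORD13 had 13.08 and 13.17, and SNORD41 13.03 and 13.11. The 12 spliceosomal and other small nuclear RNAs had a median of 8.47 with 3 bright and none near background, and 16 other noncoding RNAs had a median of 8.20 with 18.8% near it, both medians over that of the coding genes.

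MicroRNA genes had a median of 5.04 over 176 probe sets, with none bright and 85.8% near background. The arrays were hybridized with labelled copies of total RNA, so these probe sets read hairpins, primary transcripts or host genes and not the mature strands. The mature sequences of the 6 brightest, from RefSeq on GRCh38.p14, are shown to identify the genes, with the seed (bases 2 to 8) in capitals.
hsa-miR-218-5p: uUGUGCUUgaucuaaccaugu
hsa-miR-218-1-3p: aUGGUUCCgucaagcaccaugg
hsa-miR-326: cCUCUGGGcccuuccuccag
hsa-miR-221-3p: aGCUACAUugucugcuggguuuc
hsa-miR-34a-3p: cAAUCAGCaaguauacugcccu
hsa-miR-34a-5p: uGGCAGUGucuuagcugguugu
hsa-miR-339-3p: uGAGCGCCucgacgacagagccg
hsa-miR-339-5p: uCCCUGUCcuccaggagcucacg
hsa-miR-15a-3p: cAGGCCAUauugugcugccuca
hsa-miR-15a-5p: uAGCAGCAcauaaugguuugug

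MIR218-1 had 9.02 and 9.20, MIR326 9.24 and 8.80, MIR221 8.93 and 9.03, and MIR34A 9.08 and 8.75. MIR339 had 8.97 and 8.62, and MIR15A, which lies in the lncRNA gene DLEU2, had 8.66 and 8.58. DLEU2 itself had 9.53 and 9.86. No seed was shared among the sequences shown. MIR326, MIR34A and MIR339 were lower on replicate 2 by 0.33 to 0.44, more than the SD of 0.28 of that difference over all microRNA probe sets.

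Probe sets of families that no HEK-293 cell should use showed how far background reaches. Of 370 olfactory receptor genes 365 lay near background. The exceptions above it were the pseudogenes OR7E14P, bright at 10.94 and 10.99, and OR7E5P at 10.26 and 10.21, and the genes OR1F1 at 7.73 on both arrays and OR2B6 at 7.17 and 7.42, which passed on 1 array only in the LOC400043 table. In contrast 17 of 59 keratin-associated genes lay above the limit, with KRTAP5-3 at 9.10 and 8.85. Of the families not used for the limit, 6 of 16 late cornified envelope genes, 7 of 23 bitter taste receptor genes and 0 of 23 beta-defensin genes lay above it. LCE1D had 8.90 and 8.58 and TAS2R4 8.52 and 8.58, so values at and slightly over the strict limit occur in families with no known use in this line, and single genes between the limits are not shown to be expressed.

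Bright genes differed from dim ones in a feature that no measured value entered, the base composition of their promoters. RefSeq promoters of 300 bases were matched by symbol to 13762 of 18448 different symbols (74.6%). Bright genes had a median of 27 CpG per promoter, against 8 for genes near background and 23 for all. At least 15 CpG were found in 92.4% of promoters of bright genes and 35.7% of those near background. Among genes with 25 or more CpG the median level was 8.82 and 16.8% lay near background, against 5.32 and 84.6% among genes with 4 or fewer. The median CpG count lay between 26 and 28.5 in groups 5 to 10 of 10 equal groups of the genes by level, with 27 in group 10.

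Motifs were searched on both strands in the same windows, and none of those given here contains another. The ETS motif CCGGAAG was present in 23.2% of promoters of bright genes, 5.45% of those near background and 14.4% of all. For the longer motif of YY1 the shares were 3.75%, 0.12% and 1.44% in that order. The GC box GGGCGG was present in 73.0% against 38.4%, with 60.2% over all, and TATAAA in 6.20% against 15.3%, with 9.02% over all. CCAAT was found at more even shares, 41.7% against 34.7%. Motifs rich in C and G are more frequent in CpG-rich windows, and shares within windows of equal composition were not computed. Promoters of hepatocyte genes had a median of 3 CpG, and those of HOX genes had 24.

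**Figure D4:**
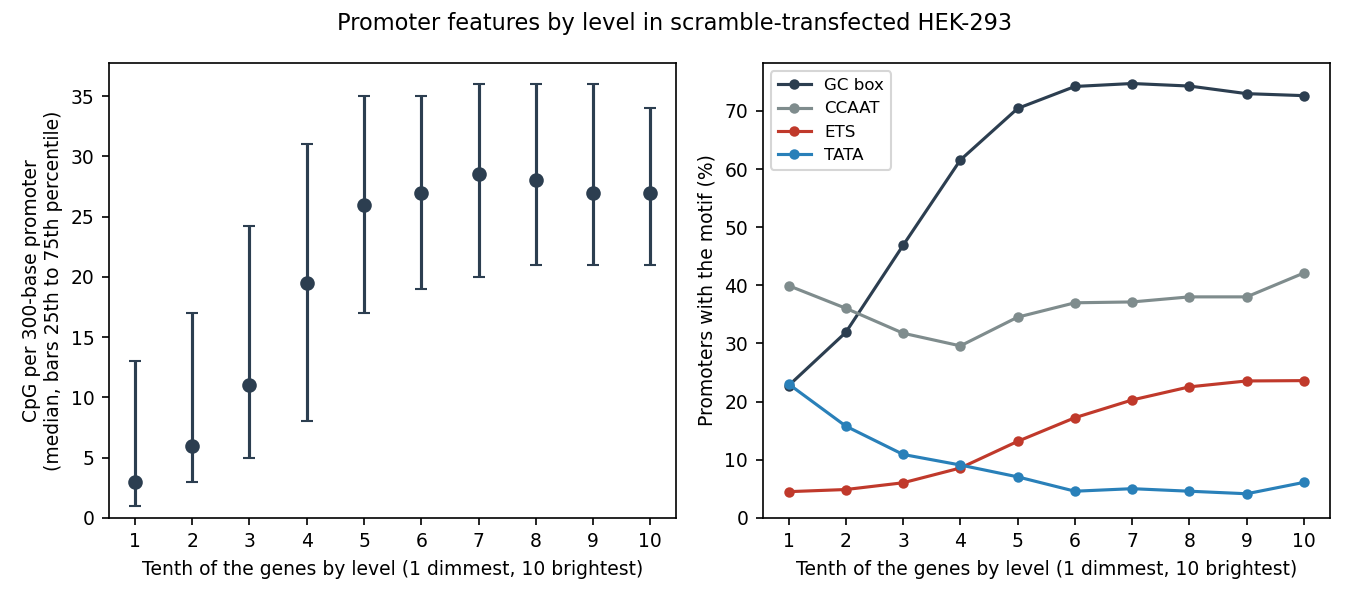
Promoter features (300 bases around the RefSeq start) in 10 equal groups of the 13762 matched genes by mean level on the 2 scramble arrays. The left panel shows the median CpG count with bars from the 25th to the 75th percentile, and the right panel the percentage of promoters with each motif. The median CpG count is 3 in the dimmest group and 26 in group 5, with 27 in the brightest, and the TATA motif is most frequent in the dimmest group at 23.0%.

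Agreement between the scramble arrays was close. Across all genes the levels correlated with Pearson's r = 0.997 and Spearman's rho = 0.997, a description in which genes are not independent replicates. The difference of replicate 2 minus replicate 1 had a median of -0.02 and an SD of 0.19. It was over 0.5 in size for 279 genes (1.51%) and over 1 for 5. The SD was 0.08 for bright genes and 0.20 for genes near background. Other pairs of replicates had an SD of 0.24 (LINC00324 siRNA 1), 0.13 (LINC00324 siRNA 2), 0.13 (LOC400043 siRNA 1) and 0.14 (LOC400043 siRNA 2), so the scramble pair lay within the range of the series. Probe sets with few probes varied most, with an SD of 0.30 where fewer than 10 probes were present and 0.16 where there were 30 or more.

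The difference was not random in its sign along the scale. Its median was -0.14 in groups 3 and 4 of 10 equal groups of the genes by level and 0.04 in each of the 3 brightest groups. The families with no known use in this line did not all differ in 1 direction. Of 59 keratin-associated genes 45 were lower on replicate 2 with a median of -0.17, as were 16 of 16 late cornified envelope genes with a median of -0.20. Of 23 bitter taste receptor genes 18 were higher, with a median of 0.12.

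Among genes above background the 5 largest differences upward on replicate 2 were those of a probe set on the mitochondrial genome at 8.08 and 8.94, HSP90AA6P at 8.51 and 9.33, SCARNA9, a guide RNA of Cajal bodies, at 8.81 and 9.60, ZNF675 at 7.43 and 8.13 and SNORD54 at 7.47 and 8.11. The 5 largest downward were those of CTU1, a tRNA thiolation enzyme, at 8.22 and 7.52, ABHD17A at 8.44 and 7.74, LOC387720 at 7.98 and 7.32, MROH6 at 8.12 and 7.51 and ESPNP at 7.99 and 7.39. Outside that rule, and picked after its values were seen, EGR1, an immediate early gene that serum and handling switch on, was at 8.64 and 9.18. In the 4 siRNA pairs EGR1 differed by -0.22 to 0.13. SCARNA9 was higher on replicate 2 in all 4 siRNA pairs as well, by 0.09 to 0.39, and ABHD17A was lower in all 4, by 0.09 to 0.74.

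**Figure D5:**
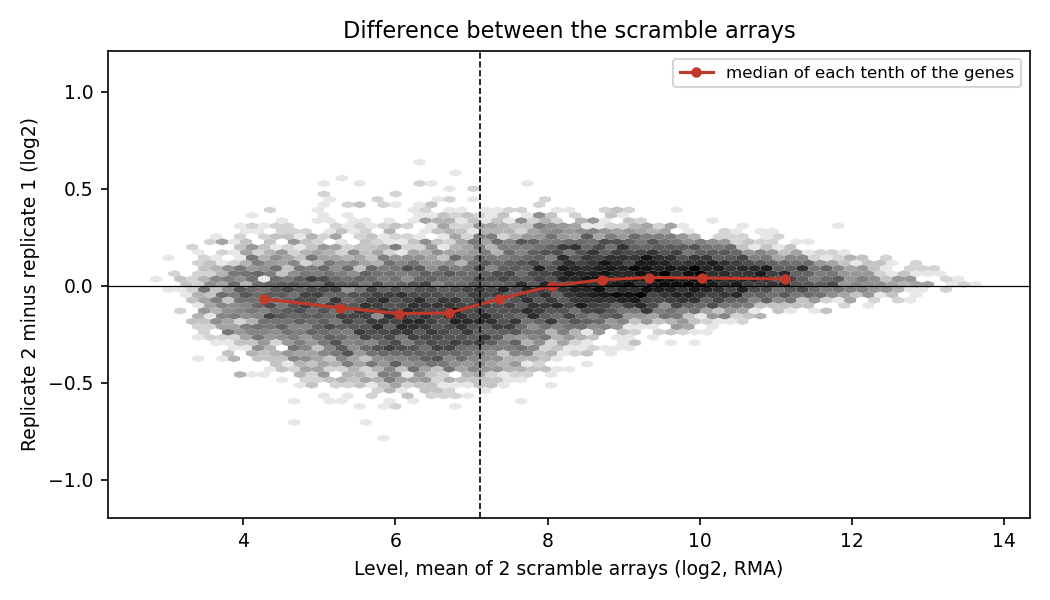
Difference of scramble replicate 2 minus scramble replicate 1 (y axis, log2) against the mean level (x axis, log2, RMA) for all 18480 genes, where darker hexagons hold more genes on a log scale. The red points are the medians of 10 equal groups of the genes by level, at -0.14 in groups 3 and 4 and 0.04 in the 3 brightest. The dashed line is the mean background limit. The cloud narrows to the right, with an SD of 0.08 for bright genes.

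The same replicate numbers recur in every group, so the difference with replicate number was fitted on the siRNA arrays alone, with limma, two-sided, the siRNA group as a block and Benjamini-Hochberg adjustment over all 18480 genes of a table. No gene was called in either table (0%) at an adjusted p under 0.05, and the smallest adjusted p of limma was 1.00 for the LINC00324 siRNAs and 0.685 for the LOC400043 siRNAs. At an unadjusted p under 0.05 there were 279 and 1288 genes. Each fit rests on 1 residual degree of freedom per gene, shared across genes by limma. With an intensity trend 1 gene was called in the LINC00324 table, PPP3R1, the dimmest gene of the table at 2.77 and 2.80, on a probe set of 4 probes.

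Of the 279 and 1288 genes, 236 (84.6%) and 1052 (81.7%) differed in the same direction in the scramble pair, where 70.4% and 65.9% of all genes did. Across genes the scramble difference correlated with that of the LINC00324 siRNA 1 pair at r = 0.60 and of the LINC00324 siRNA 2 pair at r = -0.18, in values that share a normalization. In the LOC400043 table r was 0.23 with siRNA 1 and 0.37 with siRNA 2. The siRNA pairs fitted together correlated with each other at r = -0.38 for LINC00324 and r = 0.09 for LOC400043. The shares in the same direction therefore do not show a difference common to all groups, and the genes in them are not independent replicates. MIRLET7F1 was higher with replicate number 2 by 0.48 in the LOC400043 siRNA arrays (SE 0.06, adjusted p = 0.685 by limma) and by 0.78 in the scramble pair. SNORD116-6 was lower by 0.62 (SE 0.08, adjusted p = 0.685 by limma) and by 0.56 in the scramble pair, and neither passed the threshold.

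Both deposited tables hold the same scramble arrays, normalized with different companions. Over 18229 shared probe sets the values in the LINC00324 table were higher by a median of 0.11 on each array. The ranks correlated at 0.998, and 96.3% of the probe sets fell in the same class. Bright genes numbered 1776 (9.61%) in the LOC400043 table, 10726 genes (58%) lay above background, 7241 (39.2%) near it, and 513 (2.78%) passed on 1 array. Some genes were read by different probe sets in the tables. RPL34 had 7.72 and 7.84 in the LINC00324 table and was bright at 12.67 and 12.76 in the LOC400043 table. EIF4A2 was near background at 6.15 and 6.52 and bright at 10.57 and 10.67 in the same order of tables. NDUFS7 was near background at 6.91 and 6.62 and above it at 8.74 and 8.48. Of the isoforms shown and held by both tables with the same probe set GAPDHS differed most, at 5.25 and 5.18 in the LOC400043 table, near background in both.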

How the data were processed

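Total RNA of HEK-293 cells was hybridized to 10 Affymetrix HuGene-1_0-st arrays in 5 groups of 2. The authors deposited RMA log2 levels, with RMA and limma named in the submitters' processing notes, in 2 tables of 18480 genes, each normalized over its own 6 arrays. The deposited tables also hold the authors' log2 differences and p-values, not used here, and another column, the number of probes per probe set. No version, genome build or annotation release is given in the sources used here. A deposited value table of all 10 arrays holds log2 levels copied from both tables and so is not on 1 scale. Depth has no meaning for arrays, and their number limits the precision.

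The LINC00324 table was used first and the LOC400043 table as an alternative. Symbols were updated through RefSeq GRCh38.p14, with 17317 genes matched by accession, 437 by symbol and 339 by a former symbol, and 387 kept their name in the table. Where several probe sets share a symbol the one with most probes was used. Members and lists were chosen with earlier results of these data known. Named are the 20 brightest genes, list and family members (each list with its 4 brightest and its dimmest in most cases), the 5 largest replicate differences in each direction, and genes with the smallest p for replicate number.

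The test of replicate number was planned on the value table. Because that is not on 1 scale, limma 3.58.1 in R 4.3.3 was fitted to the 4 siRNA arrays of each table, with the siRNA group as a block and Benjamini-Hochberg adjustment at 0.05. In simulated data 200 of 18480 genes were changed. With the LINC00324 settings, 49% of changes of 0.5 and 99.9% of changes of 1 (log2) were recovered. With the LOC400043 settings the shares were 96.9% and 100%. In the real LOC400043 siRNA arrays SNORD116-6, lower by 0.62, was not called (adjusted p = 0.685 by limma). The shares therefore hold for the simulated data only, and the absence of calls does not exclude changes of that size. Levels were summarized with Python 3.11.15, pandas 2.3.3 and numpy 2.4.6, and drawn with matplotlib 3.10.9. Alternatives were other background and bright limits, the other table, each scramble array left out, probe sets with at least 10 probes, and other settings of the limma fit. P-values measure only the spread between arrays that the labels call biological replicates. Some list members are not reported here.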

Additional observations from a re-analysis of the deposited data

Results flagged for a closer look

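The value table of all 10 arrays holds 14566 probe sets that lie outside both gene tables and have no gene name in the files. On the scramble arrays 1771 of them (12.2%) were over the bright limit on both arrays, and no comparison above uses them. Whether they read transcripts or are control probe sets of the array was not tested. Their median level was 6.54, and 8218 (56.4%) lay near background. The replicate difference of these probe sets had an SD of 0.33, against 0.19 for the named genes.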

How the results depend on the processing

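The number of bright genes, 1774, was 887 with the top 5% as the limit. The number near background, 7394, was 11413 with the 99th percentile as the limit and 2006 with a log2 value of 5. The lineage list members above background, 156, numbered 61 with the 99th percentile, 382 with a log2 value of 5, 240 with the limit from olfactory receptors alone and 78 with that from keratin-associated genes alone, the last pair being chosen after seeing the data. With 1 scramble array left out, bright genes numbered 1848 in both cases, genes near background 7630 to 7657, and list members above background 157 to 170. In the LOC400043 table none of the 51 lists moved by more than 1.5 times, and without scramble replicate 2 5 did, beta defensins (0 to 1) with those given above. The background limit mattered more. With the 99th percentile 35 of the 51 lists moved, and 32 moved with a log2 value of 5. The limit from keratin-associated genes alone moved 31, and that from olfactory receptors alone 17. Replicate number called 0 genes with each siRNA group left out in turn. Those fits took the remaining siRNA arrays of both tables together from the value table, over 18229 probe sets, although it is not on 1 scale. An intensity trend gave 1 called gene in the LINC00324 table. At an unadjusted p under 0.05 the LINC00324 count of 279 was 1121 over all 6 arrays of the table, 129 for genes above background, 152 with the trend and 120 with centred arrays. The LOC400043 count of 1288 was 2595 over all 6 arrays and 701 for genes above background. The SD of the replicate difference was 0.19 in both tables, 0.14 for genes above background and 0.26 over all probe sets of the value table. Counts of bright and near genes were not run on the value table, since its scramble columns equal those of the LINC00324 table. No paired analysis was possible because the levels come from no test and replicate number is itself the term of the only test.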
